A study of Drosophila melanogaster with 2 samples.

Results

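The 10 germ line genes orb, bgcn, bam, vas, nos, osk, pgc, aub, piwi and tud were followed through maps of Ada2b in *Drosophila melanogaster* embryos. They were taken as a fixed list of 10 among 13968 protein-coding genes, and each peak was counted for a gene when its summit lay within 500 bp of any annotated transcription start site (TSS) of the gene or inside the gene. The map came from chromatin immunoprecipitation with an antibody to GFP and sequencing in whole embryos of the strain Ada2b-GFP, aged 0 to 18 h, which expressed an Ada2b-eGFP fusion. Both biological replicates carried the fusion and made up a single group, so conditions could not be compared. The conservative list, made by the authors from both replicates with a threshold on the irreproducible discovery rate (IDR, a measure of how well peak ranks repeat), held 4797 peaks, and the replicates' own thresholded lists held 3762 and 3020. Peak signal is the authors' score for a peak and was compared only within a list. Ranked lists, which also keep candidates that miss the threshold, held 92003 entries for both replicates, 66541 for replicate 1 and 53185 for replicate 2. A second ranked list made from both replicates held 86228 and is called the other ranked list.

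Germ cells of the fly form at the posterior pole of the egg, where maternally supplied germ plasm specifies the pole cells. osk organises the germ plasm, vas encodes a DEAD-box RNA helicase and tud a scaffold with Tudor domains within it. nos encodes a translational repressor, and pgc a small protein that holds back transcription in pole cells. piwi and aub encode PIWI proteins, which carry piRNAs against transposons. bam and bgcn drive the daughters of germline stem cells to differentiate, and orb encodes an RNA-binding protein that controls translation in the oocyte. Ada2b is a subunit of SAGA, a coactivator that carries the histone acetyltransferase Gcn5. Whole embryos hold few germ cells, and peak lists hold no expression values, so binding in germ cells and in other cells cannot be told apart.

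The DNA under 3 of the sites is shown as examples of peaks and candidates upstream of a germ line gene, outside annotated exons, with the start of a second gene nearby. The tud candidate lay in such a place too and is described by its values below. Bases are from the RefSeq copy of the dm6 assembly, plus strand, 5′ to 3′, and capitals mark TATAAA on either strand. The first is the whole peak between orb and Cdc16 at chr3R:23281032-23281188, the second the peak between piwi and CG12253 at chr2L:10987506-10987805 without its outermost bases, and the third the candidate upstream of vas at chr2L:15061373-15061655.
orb: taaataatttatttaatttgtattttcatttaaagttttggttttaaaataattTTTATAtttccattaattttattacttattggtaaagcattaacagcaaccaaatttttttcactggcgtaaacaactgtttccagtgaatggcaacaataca
piwi: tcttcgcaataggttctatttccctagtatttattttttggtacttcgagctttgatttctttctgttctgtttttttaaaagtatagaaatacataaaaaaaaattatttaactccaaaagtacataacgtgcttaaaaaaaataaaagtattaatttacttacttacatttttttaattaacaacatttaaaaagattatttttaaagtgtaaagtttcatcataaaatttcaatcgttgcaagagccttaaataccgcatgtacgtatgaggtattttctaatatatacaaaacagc
vas: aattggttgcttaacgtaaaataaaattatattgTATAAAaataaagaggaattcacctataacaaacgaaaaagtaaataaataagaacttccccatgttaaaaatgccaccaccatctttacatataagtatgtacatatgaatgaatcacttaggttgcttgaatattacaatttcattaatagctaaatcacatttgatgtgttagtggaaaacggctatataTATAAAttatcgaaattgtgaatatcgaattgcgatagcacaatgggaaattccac

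The GC content of these sites was below the median of promoter peaks. In windows of 310 bp centred on the summit, GC content was 24.8% at piwi, lower than in all but 0.357% of the 1959 promoter peaks of the conservative list, whose median was 36.5%. It was 29.0% at orb, with 5.72% of promoter peaks lower, and 28.1% at the vas candidate, with 3.42% lower. At the tud candidate it was 34.5%, with 33.4% of promoter peaks lower. The germ line genes did not share this feature, since the window at nos had 54.5% GC and 98.8% of promoter peaks were lower. The window at bgcn had 43.5% GC, with 84.3% of promoter peaks lower. These nos and bgcn summits lay in annotated exons, whereas the sites shown were picked outside exons. The other listed peaks of nos and bgcn had summits in introns. Their windows had 36.8% GC at nos, with 50.5% of promoter peaks lower, and 51.0% at bgcn, with 96.5% lower. Low GC was thus not found at every site outside exons. The part of the choice of sites in the contrast was not tested.

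Ada2b-eGFP peaks lay at the promoters of 4 of the 10 genes, orb, bgcn, nos and piwi, in the conservative list, where 17.5% of all protein-coding genes had such a peak. The genes bam, vas, osk, pgc, aub and tud had none. Counting peaks inside the genes as well added no gene, so the count was again 4 of 10, against 23.2% of all genes. The other thresholded list made from both replicates also held promoter peaks at 4 of 10, against a background of 17.9%. In replicate 1's own list there were 4 of 10, against 14.2% of all genes. In replicate 2's own list 2 of 10 remained, orb and bgcn, against 13.2% of all genes, so nos and piwi rested on replicate 1 and on the lists of both replicates. No list was tested as a set, and these shares describe 10 chosen genes.

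Of the 42 candidate entries that the ranked list of both replicates held for the 10 genes, 6 were in the conservative list. Another 3 lay close under its threshold, at vas, at tud and in an orb intron. The other 33 had a −log10 global IDR of at most 0.31 and signals of at most 34.1. In signal, the promoter peaks of orb and bgcn were above the median of the conservative list and the other 4 listed peaks were below it. The weakest of the 6, the second bgcn peak at 49.1, had a lower signal than the vas candidate at 50.1, which was not listed.

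**Figure D1:**
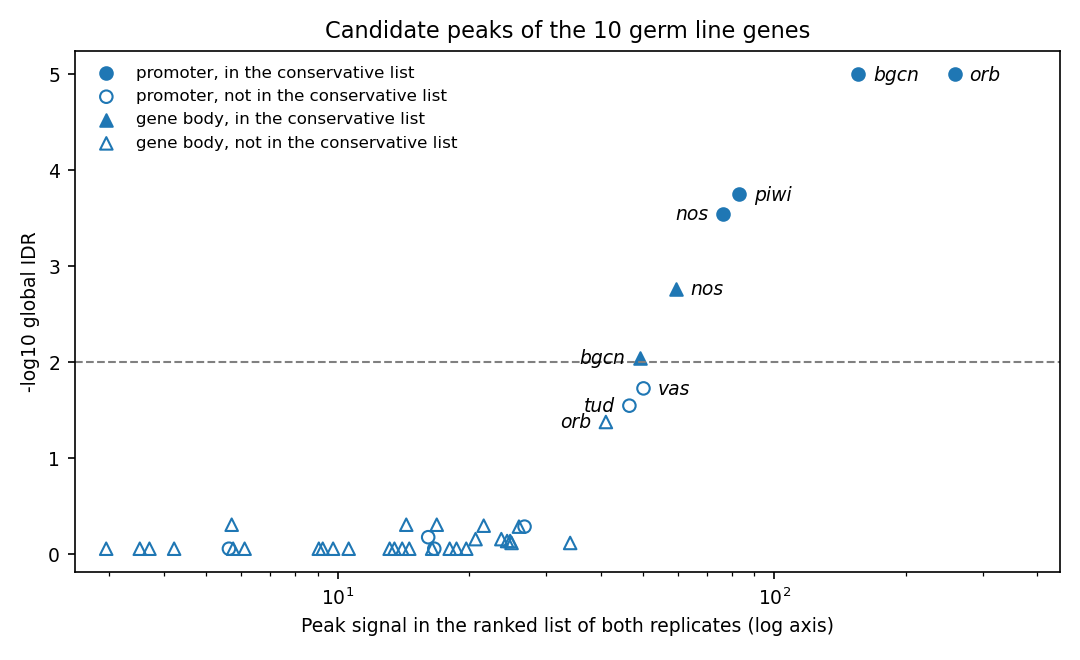
Signal (log axis) against −log10 global IDR for the 42 candidate peaks of the 10 genes in the ranked list of both replicates, with circles for promoters, triangles for gene bodies, filled symbols for peaks in the conservative list and a dashed line at its lowest value of 2.00. The 6 filled points lie above the line, vas, tud and an orb intron lie just under it, and the other 33 lie at or below 0.31.

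orb, the translational regulator of the oocyte, carried the strongest site. Its peak at chr3R:23281032-23281188 had a signal of 259, rank 430 of 4797 and percentile 91.1 in the conservative list. The signal was 154 in replicate 1, rank 420 of 3762, and 107 in replicate 2, rank 486 of 3020. Within the replicates' own thresholded lists the percentile was 86.4 ± 3.48 (SD, n = 2). The summits repeated closely, at 257 bp upstream of the most 5′ start of orb in replicate 1 and 259 bp upstream in replicate 2. The peak was 157 bp wide, whereas 81.4% of the conservative list had the common width of 310 bp.

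The orb site also lay at the promoter of Cdc16, which encodes a subunit of the anaphase-promoting complex. The most 5′ start of orb and the start of Cdc16 face away from each other 345 bp apart, and the summit was 88 bp upstream of Cdc16, nearer to it than to orb. An intronic candidate of orb, 823 bp downstream of the start, had a signal of 41.1 and a −log10 IDR of 1.38 in the ranked list, below the lowest value kept, 2.00. orb has 4 annotated starts, and no thresholded peak lay at the internal ones.

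bgcn, the partner of bam in differentiation, carried the only promoter peak among the 4 that had no second protein-coding start within 500 bp. The peak at chr2R:23858634-23858943 had a signal of 156, rank 1043 and percentile 78.3. The signal was 98.2 in replicate 1 and 60.9 in replicate 2, and the percentile within their own lists was 67.7 ± 11.5 (SD, n = 2). Its summit lay 132 bp downstream of the start, in an untranslated stretch of a bgcn exon, and the replicate summits lay 151 and 99 bp downstream.

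A second bgcn peak, at chr2R:23856794-23857103 with a signal of 49.1, was inside the gene but 13 bp upstream of the start of Pym. Pym, a binding partner of the exon junction complex, is nested within bgcn on the same strand. This was the conservative-list entry closest above the threshold among the 10 genes, with a −log10 IDR of 2.05. In the replicates' ranked lists its signals were 27.5 and 19.3 and its −log10 IDR values 1.34 and 0.86, so neither replicate's own thresholded list held it. bam had no entry at its promoter in the ranked list of both replicates. Replicate 1 listed a candidate 396 bp downstream of its start, with a signal of 13.9 and a −log10 IDR of 0.06, and replicate 2 listed none. The other ranked list held a bam entry 413 bp downstream of the start, with a signal of 16.2 and a −log10 IDR of 0.06.

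nos, the translational repressor, had 2 peaks in the conservative list. The upstream peak at chr3R:19156685-19156994 had a signal of 76.3, rank 2804 and percentile 41.6, with its summit 398 bp upstream of nos. It lay 28 bp upstream of a start of CG11779, a gene on the opposite strand, and within an untranslated exon of a longer CG11779 transcript. Replicate 1's thresholded list held it with a signal of 50.6, and replicate 2 gave 29.0 in its ranked list with a −log10 IDR of 0.64, short of 2.00. The summit moved between replicates, from 331 bp upstream in replicate 1 to 459 bp upstream in replicate 2, a shift shorter than the common peak width.

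The other nos peak at chr3R:19158084-19158393 had a signal of 59.4 and rank 3703, and its summit was 1001 bp downstream of the start, in a nos intron that also lies in an intron of CG11779. No other start lay within 500 bp of it. The replicates' ranked lists gave it signals of 32.4 and 25.7 with −log10 IDR values of 1.56 and 0.10. Unlike the upstream peak, it was thus past the threshold only in the lists made from both.

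piwi, which encodes the nuclear PIWI protein, had a peak at chr2L:10987502-10987811 with a signal of 83.2, rank 2520 and percentile 47.5, near the conservative list's median signal of 86.1. The summit was 237 bp upstream of piwi and 149 bp upstream of CG12253, whose start faces away from that of piwi at a distance of 386 bp. Replicate 1 gave a signal of 50.5 with the summit 232 bp upstream. Replicate 2's own ranked list held no entry within 500 bp of the start, although the site had a −log10 IDR of 3.75 in the list made from both replicates. An absent entry is not a measured signal of 0, and signals of the matched pairs that the series' ranked lists hold without a sample name were not used, so no replicate 2 value is given for piwi. aub, the other PIWI gene, had no promoter entry in any of the 8 lists. Its 5 entries, all inside the gene, came from replicate 1's ranked list, with signals from 4.30 to 17.5.

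**Figure D2:**
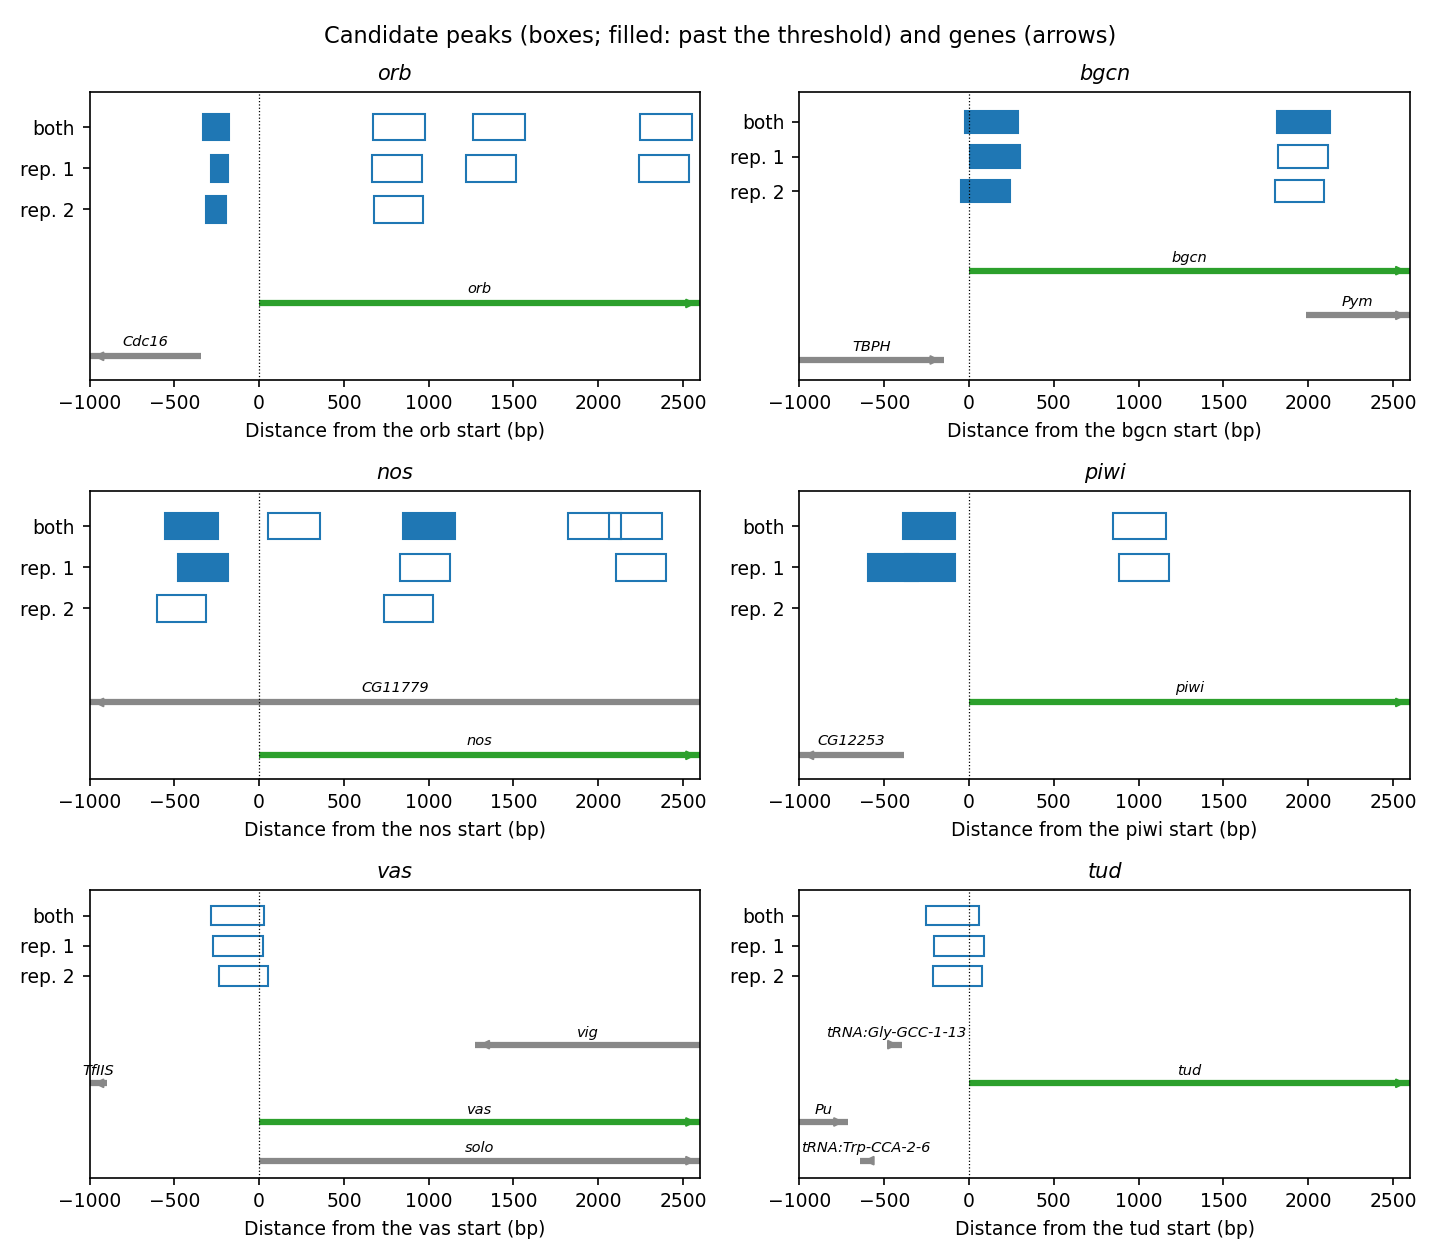
Candidate peaks (boxes, filled where past the threshold of the matching list) for both replicates together, replicate 1 and replicate 2, with protein-coding and tRNA genes as arrows, by distance in bp from the most 5′ start of 6 genes. Peaks at orb and piwi sit between starts that face away from each other, the nos peak overlies CG11779, whose internal starts are not drawn, and the second bgcn peak sits at the start of Pym. The filled box of piwi in replicate 1 joins 2 overlapping entries.

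In the germ plasm genes vas and tud, candidates fell just short of the threshold. The vas candidate at chr2L:15061373-15061682 had a signal of 50.1, its summit 128 bp upstream of the start, and a −log10 IDR of 1.73. The vas start is also the start of solo, a gene for meiotic cohesion that shares its promoter with vas. Replicate 1 listed it with a signal of 33.0 and a −log10 IDR of 1.84, and replicate 2 with 16.7 and 0.10. The lowest −log10 IDR kept in each replicate's list was 2.00. In signal alone the vas candidate exceeded 10.5% of the conservative list. That share includes 150 entries (3.13% of the list) that were the weaker of 2 matched to the same pair of peaks. Of the 4900 ranked entries on the main arms with at least that signal, the vas candidate included, 609 were not in the conservative list.

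The tud candidate at chr2R:21183069-21183378 had a signal of 46.6 with its summit 98 bp upstream of the start, and a −log10 IDR of 1.55. It exceeded 6.23% of the conservative list in signal, and the weaker entries of shared pairs within that share were not counted. In the replicates' ranked lists the summits were 58 and 68 bp upstream and the signals 24.0 and 16.8, and each −log10 IDR was 0.13. The same candidate had a −log10 IDR of 0.22 in the other ranked list made from both replicates, so its place just under the threshold held in only 1 of those lists, whereas vas had 1.34 there. In the ranked list of both replicates the tud summit was also 368 bp downstream of the start of a glycine tRNA gene and 475 bp upstream of that of a tryptophan tRNA gene.

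osk and pgc had weak candidates. At osk the entry 395 bp downstream of the start, in coding sequence, had a signal of 26.8 and a −log10 IDR of 0.29 in the list of both replicates, with 12.2 in replicate 1 and 15.1 in replicate 2. Starts of an antisense RNA and of the noncoding osk transcript annotated as lncRNA:osk were also within 500 bp of it. At pgc the strongest promoter entry had a signal of 16.6 and a −log10 IDR of 0.06, with 10.9 in replicate 1 and 6.13 in replicate 2, and the replicates' entries lay at different starts of the gene. The entry of both replicates and that of replicate 2 were also within 500 bp of a start of T3dh, which overlaps pgc. An entry of this kind is common, since 70.7% of all protein-coding genes had a promoter entry in the ranked list of both replicates, as did 8 of the 10 germ line genes.

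The strongest promoter entry of each gene was then placed among all 13968 protein-coding genes, as the share of genes with a lower promoter signal in the same ranked list. Genes without a promoter entry were counted as lower. They made up 29.3% of genes in the ranked list of both replicates, 38.1% in replicate 1's and 42.7% in replicate 2's. The pgc value of 44.5% in replicate 2 was thus little above the share of genes without an entry. The order of the genes with an entry in both replicates was orb (97.3% ± 0.435, SD, n = 2), bgcn (94.5% ± 1.19), nos (87.2% ± 2.89), vas (78.8% ± 6.59), tud (75.7% ± 1.87), osk (61.1% ± 14.3) and pgc (45.9% ± 2.00). Neighbours in this order had replicate values that did not overlap, except vas and tud, whose values did. piwi stood at 89.2% in replicate 1 and at 88.8% in the list of both replicates. bam stood at 55.9% in replicate 1, with no entry elsewhere among these 3 lists. On this scale osk varied most, from 51.0% in replicate 1 to 71.2% in replicate 2. The small SD of pgc does not show that its signal repeated. Its entries stood at percentiles 36.7 and 7.3 of the ranked lists of replicate 1 and replicate 2, and lay at different starts. With 2 replicates none of these differences was tested.

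**Figure D3:**
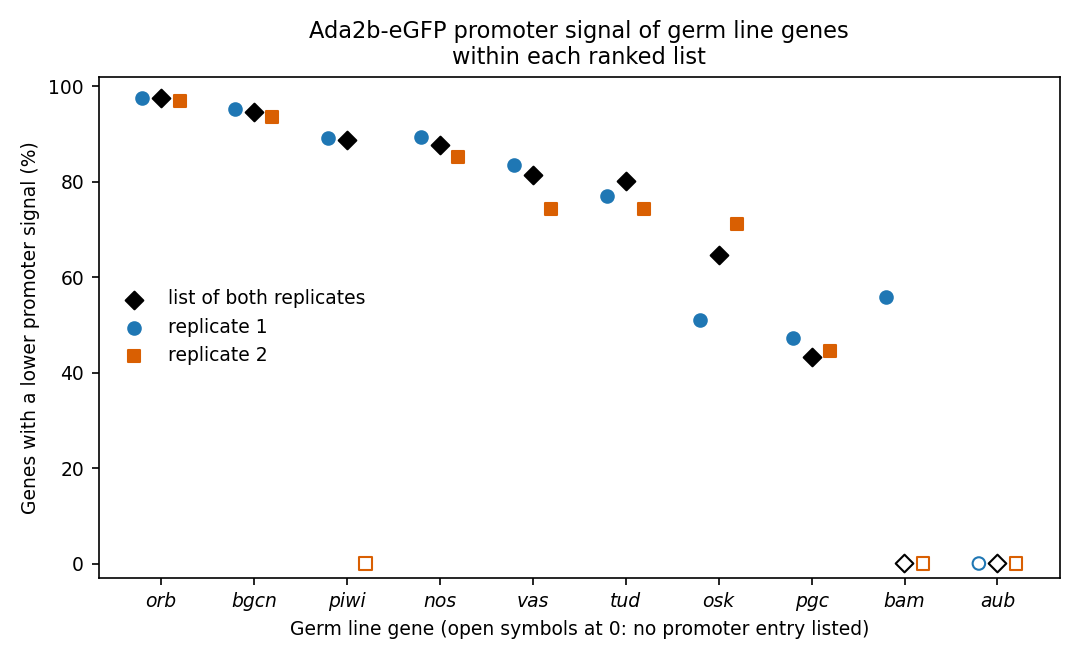
Share of protein-coding genes (%) with a lower promoter signal than each germ line gene, in the ranked list of both replicates (black diamonds), of replicate 1 (blue circles) and of replicate 2 (orange squares), with open symbols at 0 where the list holds no promoter entry for the gene, which is not a measured signal of 0. Genes without a promoter entry count as lower, and they are 29.3%, 38.1% and 42.7% of genes in the 3 lists. orb and bgcn stand above 93% in all 3 lists, osk differs most between replicates on this scale, and piwi has no promoter entry in replicate 2.

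Of the 4 promoter peaks, 3 were thus shared with a neighbour, against 35.0% of the 1959 promoter peaks in the conservative list that lay near starts of more than 1 protein-coding gene. In each of the shared cases, orb, nos and piwi, the neighbour's start was the nearer. When each peak was given only to the gene with the nearest start, bgcn alone kept a promoter peak. The count was then 1 of 10, against 12.8% of all protein-coding genes. Of the 4 germ line genes with a head-to-head start within 500 bp (orb, nos, piwi and pgc), 3 had a promoter peak, and 33.1% of all such genes did. Of the other 6, bgcn alone had a peak, against 11.6% of all genes without a head-to-head start. Both genes of a head-to-head arrangement are counted for a peak between them, which raises the background share of 33.1%.

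Known promoter elements were sought between 250 bases upstream and 50 bases downstream of the most 5′ start of each gene, on both strands. TATCGATA, the DNA replication-related element bound by Dref, was found at bam and nos and in 9.36% of all promoters. GGTCACACT, the core of the element known as motif 1, was found at piwi and in 6.04% of promoters. GAGAG, recognised by GAGA factor, was found at orb and bgcn and in 29.7%. TATAAA was found at 6 of the 10 genes (orb, bgcn, bam, vas, nos and pgc) and in 45.8%, and CACGTG at none and in 4.20%. None of the 5 strings contains another.

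The rarer elements are shown because they did not coincide with the peaks. The following stretches of 30 bases are from RefSeq dm6, 5′ to 3′ on the gene's own strand, with the element in capitals, at chr2L:10987404-10987433 (piwi), chr3R:19157169-19157198 (nos) and chr3R:25245125-25245154 (bam).
piwi: tctggccatttGGTCACACTgagtccaaag
nos: tttactaaaaaTATCGATAtatttattatc
bam: actcgacatgaTATCGATAcgttaacaaca

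The element at piwi began 2 bases upstream of the start, while the summit was 237 bp upstream. That at nos began 58 bases upstream, outside the peak, and that at bam began 34 bases upstream of a start with no promoter entry past the threshold in any list. In windows of 310 bp at the summits, the promoter peaks of bgcn, nos and piwi held none of the 5 elements and that of orb held TATAAA, which was present in 45.8% of all windows of the conservative list. The window of the second bgcn peak, at the start of Pym, held TATCGATA, found in 4.17% of windows, along with GAGAG and TATAAA. A match of letters is a description and does not show that a factor bound there.

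Other genes of germ cell biology gave a mixed picture. Promoter peaks of the conservative list lay at 4 of 31 further piRNA pathway genes (12.9%, against 17.5% of all genes). They were papi, which encodes a Tudor protein of piRNA trimming, with a signal of 533 (288 in replicate 1 and 233 in replicate 2), cuff, a factor for transcription of piRNA clusters, with 155 (72.1 and 82.2) and shared with CG13185, tapas, which encodes a Tudor domain protein, with 94.2 (59.8 and 33.8), and wde, a cofactor of histone H3 lysine methylation, with 77.0 (44.3 in replicate 1 and none in replicate 2). The papi signal ranked 108 of 4797, above that of all 10 germ line genes followed here. In replicate 1's own list the count was 6 of 31 (19.4%, against 14.2% of all genes) and in replicate 2's 4 of 31 (12.9%, against 13.2%). The share was thus below that of all genes in the conservative list and above it in replicate 1. These were counts of 4 and 6 genes, and neither difference was tested. In all 3 lists there were 3 genes. For this count, and for the same count of the lists below, no share of all genes was computed.

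Of 22 further genes of germ plasm and localized RNAs, 8 had a promoter peak (36.4%, against 17.5% of all genes). The strongest were tral, which encodes a P-body protein, with a signal of 137 (72.8 in replicate 1 and 62.1 in replicate 2) and shared with sti, smg, a repressor of nos mRNA translation, with 115 (64.8 and 45.1), and capu, which encodes a formin, with 82.7 and no promoter peak in either replicate's own list. The replicates' own lists held 6 (27.3%, against 14.2%) and 5 of the 22 (22.7%, against 13.2%), and 4 were in all 3 lists. Of 21 further genes of germline stem cells and differentiation, 6 had a promoter peak (28.6%, against 17.5% of all genes). The replicates' own lists held 2 (9.52%, against 14.2%) and 3 of the 21 (14.3%, against 13.2%). The share was thus below that of all genes in replicate 1 and close to it in replicate 2. In all 3 lists there was 1 gene. The 6 included orb2, a relative of orb, with 119 (64.8 and 53.3) and shared with GNBP3, Sxl, a splicing regulator, with 107 (62.6 in replicate 1 and none in replicate 2), and hts, which encodes an adducin of the fusome, with 65.0 (none in replicate 1 and 36.7 in replicate 2).

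With peaks inside the genes counted as well, the shares were 4 of 31 (12.9%), 12 of 22 (54.5%) and 14 of 21 (66.7%), against 23.2% of all genes. These lists differ in gene length, with medians of 3448, 7778 and 18899 bp against 2164 bp for all protein-coding genes and 4437 bp for the 10 germ line genes, and a longer gene has more room for a peak. The part of length in these counts was not tested. Promoter peaks were counted at any annotated start, so a gene with more starts has more places for one. The number of starts in these lists was not compared, and its part in the promoter counts was not tested.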

How the data were processed

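The peak lists were deposited by the authors. Per the deposited notes, they come from dm6 alignments with a control file, and the thresholded lists name a further input file. Per the labels, chromatin was sonicated to 200 to 800 bp. No aligner or peak caller is named there, control reads were not analysed here, and depth per sample is unknown. The deposited signal is a score of the peak caller, the deposited score is the rescaled IDR, and the −log10 global IDR was deposited with the ranked lists. Per the file, 4 signal columns in the series' ranked lists name no sample and were not used.

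Gene models were those of Ensembl release 115, in which nos is named nanos, and sequence was that of RefSeq. No peak ran past the end of any of the 7 arms. The percentile of a peak is the share of its list at or below its signal. Assignment of peaks to genes was tested on simulated data and placed 200 of 200 planted peaks. Python 3.11.15, numpy 2.4.6, pandas 2.3.3 and matplotlib 3.10.9 were used. No significance test was run, since there is 1 group and the genes are a chosen list. The members and lists were chosen with earlier results of these data known. Of the further genes, 2 symbols matched no single gene. Genes named from the further lists were, by rule, up to 3 with the strongest promoter peak, and wde was added after its values were seen. Alternatives were other lists, windows, overlap rules, TSS sets and gene assignments.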

Additional observations from a re-analysis of the deposited data

How the results depend on the processing

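The count of 4 genes with a promoter peak was also obtained with the other thresholded list (against 17.9% of all genes) and a 1000 bp window (20.7%). It was the same with any overlap of the peak (18.8%) and with the most 5′ TSS only (15.2%). It was 2 with a 250 bp window (bgcn and piwi, against 13.7% of all genes). Peaks of at least the median signal gave 2 (orb and bgcn, against 10.6%). With the nearest TSS only it was 1 of 10 (bgcn), against 12.8% of all genes. Leaving out replicate 2 gave 4, against 14.2%, and leaving out replicate 1 gave 2, against 13.2%. The count with any peak, also 4, was 2 with peaks of at least the median signal, against 14.6% of all genes. It was 2 with the nearest TSS only (bgcn and nos, against 18.5%) and 3 with a 250 bp window (bgcn, nos and piwi, against 21.2%). For any peak, leaving out replicate 2 gave 4, against 19.4%, and leaving out replicate 1 gave 2, against 17.6%. Of 14 alternative values for signal percentiles of single genes in thresholded lists, 8 moved by less than the spread between replicates, or did not move. The other 6 moved by more, or moved at nos or piwi, which had no such spread. Of 24 in ranked lists, 16 moved by less than the spread and 8 by more. The spread is the SD of the 2 replicates' own percentiles, and leaving out a replicate returns those same values. A move smaller than the spread therefore does not show that a value is stable. At pgc, where the SD was 45.7, a fall from 48.5 to 7.3 without replicate 1 counted as less. No paired analysis was possible because there is 1 group. The summit of most peaks is the middle of a box of fixed width, so short distances are not resolved, and read depth is unknown.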

Other observations

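Replicate 1's thresholded list held a second entry near piwi, 448 bp upstream of its start and inside CG12253, with a signal of 3.94, rank 3742 of 3762, although its −log10 IDR of 3.25 was that of the main entry. Both entries were matched to the same pair of peaks. Such doubling was not confined to piwi: in the conservative list 300 entries shared a matched pair, and the weaker entry of each, 150 in all (3.13% of the list), had a signal below the list's 10th percentile of 49.8. The thresholded lists held 83 weaker entries of this kind for replicate 1 (2.21%) and 39 for replicate 2 (1.29%). Of the 6 conservative-list peaks at the germ line genes, the bgcn peak at Pym, with a signal of 49.1, was also below 49.8. Its −log10 IDR of 2.05 was not that of any other bgcn entry in the ranked list of both replicates, where the others had 5.0 or 0.06.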
